A study of Mus musculus with 67 samples.

Results

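The elements described here are the 72 accessible regions assigned to the genes of the motor neuron determinants Isl1, Isl2, Mnx1, Lhx3, Lhx4, Onecut1, Onecut2 and Onecut3, out of 111638 regions measured in the series. An element was taken as a member when the authors' annotation gave 1 of these 8 genes as the nearest gene, whatever its accessibility. The question was whether the loci of the later motor neuron program were already open in pMN, the progenitors of motor neurons, before or more than in the other ventral neural progenitor types.

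All 67 libraries came from HM1 mouse embryonic stem cells, with no further genetic change given in the labels. Cells were differentiated in adherent culture into neuromesodermal progenitors (NMPs), collected at day 3 with no SAG, and then into ventral neural progenitors, with retinoic acid from day 3 onward together with SAG, a small molecule agonist of Smoothened that stands in for Sonic hedgehog. The neural progenitors were collected at days 4, 5 and 6 and sorted on intracellular transcription factors by CaTS-ATAC, in which fixed and transposed cells are stained and sorted before an ATAC-seq library is made. The p0-1 libraries came from 0 and 10 nM SAG, the p2 libraries from 10 and 100 nM, and the pMN and p3 libraries from 100 and 500 nM. All neural progenitors were gated as SOX2+. Within that gate p3 was NKX2.2+ and OLIG2-, and pMN was OLIG2+ with cells also positive for NKX2.2 excluded. The p2 cells were NKX6.1+ and PAX6+, and p0-1 was PAX6+ and NKX6.1-. The 25 conditions held 3 replicates in 17 cases and 2 in 8, from independent differentiations. Pooled over SAG, pMN had 6, 5 and 4 samples at days 4, 5 and 6, p2 had 6 on each day, p0-1 had 6, 6 and 5, and p3 had 5, 5 and 4. The day 6 pMN and p3 samples carry only replicate numbers 2 and 3, each at both SAG concentrations. Sample sizes below therefore count libraries, not differentiations. Because pMN and p0-1 share no SAG concentration, cell type and SAG concentration cannot be told apart in that comparison. The cells are an in vitro model of 1 stem cell line, and a bulk library cannot tell fewer open cells from less openness per cell.

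Isl1 and Isl2, with Lhx3 and Lhx4, encode LIM-homeodomain transcription factors. In newborn motor neurons Isl1 and Lhx3 act together in a complex that activates motor neuron genes, while Lhx3 without Isl1 takes part in V2 interneuron specification. Mnx1, also known as HB9, is a homeodomain factor that holds the motor neuron program against the V2 program. The Onecut genes encode cut-homeodomain factors expressed in many newborn neurons, motor neurons among them. These genes are mostly expressed once progenitors leave the cell cycle, whereas the sorted cells were still SOX2+.

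The elements were unevenly spread over the 8 genes. Isl1, on chromosome 13, had 24 elements from -245413 bp, upstream, to 558315 bp downstream of its start site, and 20 of these lay more than 100 kb away. Lhx4 on chromosome 1 had 12, Onecut3 on chromosome 10 had 9 and Lhx3 on chromosome 2 had 7. Onecut2 on chromosome 18 had 6, Mnx1 on chromosome 5 and Onecut1 on chromosome 9 had 5 each, and Isl2 on chromosome 9 had 4. By the authors' annotation 44 were intergenic, 21 intronic, 3 at a transcription termination site, 2 exonic and 2 at a promoter. Of the 72 elements, 29 (40.3%) had a mean above 100 normalized counts over the samples, against 28.4% of all elements. A normalized count is the number of reads in an element divided by the library's size factor. The median width was 901 bp, against 883 bp over all elements. Below, an element is named by its gene and its distance from that gene's start site, in the direction of transcription, so that negative distances lie upstream.

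Of the 72 elements, 38 had enough counts to be tested between pMN and another type on the same day, and 12 of the 38 were higher in pMN than in at least 1 other type at some day, where 18.7% of all elements tested were. The 6 that carry most of the comparisons below were chosen for printing, and the central 300 bp of each are printed here from the GRCm38 (mm10) genome, plus strand. Capitals mark matches to 7 short motifs searched on both strands: the E-box CANNTG, bound by basic helix-loop-helix factors such as OLIG2 and the neurogenins, and its special cases, CAGATG first and then CATATG. The others were TAATTA, read by many homeodomains, ATCAAT, found in Onecut sites, TGTTTAC, read by forkhead factors, and AACAAT, read by SOX factors. A match to either special case is also counted as an E-box.

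Mnx1 -6.7 kb (chr5:29485019-29485318): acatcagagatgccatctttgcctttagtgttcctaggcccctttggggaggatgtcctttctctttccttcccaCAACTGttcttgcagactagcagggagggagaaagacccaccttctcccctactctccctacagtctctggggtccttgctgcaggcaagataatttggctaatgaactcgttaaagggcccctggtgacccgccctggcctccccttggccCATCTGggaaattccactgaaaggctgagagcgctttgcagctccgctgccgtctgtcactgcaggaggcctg

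Lhx3 +32.8 kb (chr2:26175297-26175596): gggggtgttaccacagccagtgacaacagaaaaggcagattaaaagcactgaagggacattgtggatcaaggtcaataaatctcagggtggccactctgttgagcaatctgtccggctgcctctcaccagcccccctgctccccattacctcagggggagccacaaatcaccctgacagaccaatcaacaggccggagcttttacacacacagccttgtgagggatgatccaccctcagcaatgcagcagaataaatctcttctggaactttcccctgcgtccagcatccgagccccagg

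Lhx3 +29.0 kb (chr2:26179073-26179372): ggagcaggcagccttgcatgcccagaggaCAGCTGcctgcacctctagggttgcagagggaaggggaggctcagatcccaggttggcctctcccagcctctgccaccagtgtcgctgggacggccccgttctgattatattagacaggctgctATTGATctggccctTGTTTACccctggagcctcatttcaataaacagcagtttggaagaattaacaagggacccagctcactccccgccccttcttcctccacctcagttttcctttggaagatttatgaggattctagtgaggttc

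Lhx4 -9.2 kb (chr1:155751067-155751366): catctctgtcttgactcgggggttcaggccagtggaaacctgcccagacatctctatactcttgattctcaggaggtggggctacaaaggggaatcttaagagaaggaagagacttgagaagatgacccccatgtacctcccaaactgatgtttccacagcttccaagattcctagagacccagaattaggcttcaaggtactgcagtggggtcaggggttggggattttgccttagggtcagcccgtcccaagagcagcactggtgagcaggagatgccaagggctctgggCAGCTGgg

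Lhx4 -5.2 kb (chr1:155747042-155747341): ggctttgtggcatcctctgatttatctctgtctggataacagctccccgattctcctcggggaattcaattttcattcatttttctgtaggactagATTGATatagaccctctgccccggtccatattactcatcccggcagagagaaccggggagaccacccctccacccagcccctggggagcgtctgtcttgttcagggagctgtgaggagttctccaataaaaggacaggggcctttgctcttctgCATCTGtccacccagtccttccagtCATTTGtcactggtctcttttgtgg

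Isl1 +558.3 kb (chr13:115751224-115751523): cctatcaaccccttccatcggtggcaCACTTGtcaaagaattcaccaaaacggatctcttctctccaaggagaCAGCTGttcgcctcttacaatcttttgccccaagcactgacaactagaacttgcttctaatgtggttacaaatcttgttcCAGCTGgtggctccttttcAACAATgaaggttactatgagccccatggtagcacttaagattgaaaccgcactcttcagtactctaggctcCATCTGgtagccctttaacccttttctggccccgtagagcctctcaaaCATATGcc

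The Mnx1 -6.7 kb element (chr5:29484063-29486273) is intergenic, upstream of Mnx1 (chr5:29473034-29478470, minus strand). The Lhx3 +32.8 kb (chr2:26175047-26175846) and +29.0 kb (chr2:26179010-26179434) elements are intergenic and lie beyond the 3′ end of Lhx3 (chr2:26200212-26208289, minus strand). The Lhx4 -9.2 kb (chr1:155750504-155751928) and -5.2 kb (chr1:155746946-155747436) elements are intergenic in the authors' annotation but overlap the Lhx4 gene of the GENCODE annotation (chr1:155698031-155751684, minus strand). The -9.2 kb element holds the start of that gene model, and the -5.2 kb element lies inside it, so neither is distal by that annotation. The Isl1 +558.3 kb element (chr13:115750973-115751774) is intergenic and far downstream of Isl1 (chr13:116298281-116309689, minus strand). None of the 6 printed windows overlapped an annotated exon.

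Over the central 300 bp of the 12 elements higher in pMN, 10 held a CANNTG match (83.3%), where 79.8% of the windows of all elements, 82.5% of all those more than 5 kb from a start site and 66% of the other 47 determinant elements at that distance did. CAGATG was in 5 (41.7%, against 25.7%, 27.9% and 25.5% in the same 3 sets). ATCAAT was in 4 (33.3%, against 11.9%, 13.4% and 19.1%), and AACAAT in 3 (25%, against 18.4%, 20.7% and 23.4%). TGTTTAC was in 1 (8.33%, against 4.96%, 5.44% and 0%) and CATATG in 1 (8.33%, against 5.22%, 5.85% and 4.26%). TAATTA was in none (against 7.85%, 8.89% and 6.38%). The Lhx3 +32.8 kb window held none of the 7 motifs, which says only that these letters are not in that window. The median GC content was 53.8% for these 12 windows and 48% for all elements. With 12 windows these shares are descriptions and were not tested.

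The first comparison asked how open these loci were before the progenitor types separated, and whether pMN stood apart as soon as it could be sorted. At day 4 no element with enough counts to be tested was called different between pMN and p0-1 (of 25 tested), p2 (of 24) or p3 (of 23). An element was called when its fold change exceeded 2 at an adjusted p under 0.01 (limma on the deposited transformed values, with Benjamini-Hochberg adjustment over every element that averaged more than 100 normalized counts across the compared samples). Among all elements tested at day 4, 3.32% were higher in pMN than in p0-1 and 0.541% lower, 0.261% higher than in p2 and 0.0167% lower, and 6.05% higher than in p3 and 1.91% lower. At an unadjusted p under 0.05, 6, 1 and 9 of the determinant elements differed in the same 3 comparisons, and voom on the recovered reads also called 0 in each. Member log2 fold changes against p2 at day 4 ran from -0.23 at Lhx3 +2.3 kb to 0.16 at Isl1 -186.2 kb. Most determinant elements had few counts at day 4. With all 72 tested whatever their mean, 3 were higher in pMN than in p0-1 (5.16% of all elements were), 0 than in p2 (0.305%) and 13 than in p3 (8.53%), while 0, 0 and 2 were lower. The 3 over p0-1 were Isl1 -198.6, -205.3 and -245.4 kb. At Isl1 -245.4 kb day 4 pMN had 58.9, 90.8 and 122 normalized counts as lowest, median and highest, p2 had 26.2, 75.7 and 129, p0-1 9.43, 28.7 and 50.4, and p3 5.69, 11.2 and 28.3. There pMN lay above p0-1 and p3 and overlapped p2. No determinant element had every pMN sample above every sample of the other types at day 4.

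In the step before it, from NMPs to day 4 pMN, most elements called among those with enough counts fell. Of 31 elements tested, 15 fell and 1 rose, where 27.1% of all elements fell and 21.2% rose. Centered on sample medians 9 fell and 1 rose. With all 72 elements tested whatever their mean, 23 fell and 19 rose (22.9% and 35.1% of all elements), and 12 of the 19 lay at Isl1. The elements that fell lay at Isl1 (2), Isl2 (2), Mnx1 (2), Lhx3 (3), Lhx4 (2) and Onecut3 (4). At Mnx1 -6.7 kb, the NMP samples had 385, 290 and 430 normalized counts, and the day 4 pMN samples had a lowest value of 62.9, a median of 74.4 and a highest of 86. The groups did not overlap, and the element fell by 2.28 on the log2 scale. The 1 element that rose was Lhx4 -9.2 kb, from 72.8 to 282 (log2 fold change 1.94, limma adjusted p = 2.21e-08).

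From day 4 to day 6, among elements with enough counts to be tested, 12 rose in pMN, 10 in p2, 2 in p3 and 1 in p0-1. The filter on the mean left different elements in each type. In pMN these were 12 of 32 elements tested, and none fell (17.7% of all elements rose, 7.29% fell). In p2, 10 of 31 rose and none fell (17.4% and 7.42% of all elements). In p0-1, 1 of 23 rose and 1 fell (14.6% and 7.17%), and in p3 2 of 21 rose and 2 fell (16.6% and 7.34%). Without the third 10 nM replicate of day 4 p0-1, described below, 2 rose and 0 fell in p0-1. With all 72 elements tested whatever their mean, 20 rose and 11 fell in pMN (19.6% and 16.2% of all elements). In p2 these were 21 and 7 (20.2% and 15.8%), in p0-1 12 and 6 (16.2% and 12.5%) and in p3 15 and 10 (19% and 13.4%). Lhx3 +32.8 kb and Isl1 +558.3 kb, untested in p0-1 and p3 under the filter, then rose in p0-1 (log2 fold changes 2.66 and 2.69) and p3 (3.59 and 3.69). The 12 that rose in pMN were 3 at Isl1 (-245.4, -205.3 and +558.3 kb), 1 at Mnx1 (-6.7 kb), 3 at Lhx3 (+10.0, +25.5 and +32.8 kb), 4 at Lhx4 (-9.2, -5.2, +12.7 and +37.8 kb) and 1 at Onecut1 (-4.8 kb). The 10 that rose in p2 were the same elements except Mnx1 -6.7 kb and Lhx4 +12.7 kb. Among the elements tested the largest rises in pMN were at Lhx3 +32.8 kb, from 39.1 to 937 (log2 fold change 4.55, limma adjusted p = 4.37e-09), and Lhx4 -5.2 kb, from 20.0 to 457 (log2 fold change 4.45).

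Against the other types on the same day, elements called at days 5 and 6 were all higher in pMN among those with enough counts to be tested. Against p0-1, 6 of 28 elements tested were higher at day 5 and 10 of 32 at day 6, where 6.81% and 9.28% of all elements were (4.41% and 3.06% were lower). Against p3, 8 of 27 were higher at day 5 and 11 of 30 at day 6, where 12.1% and 15.5% of all elements were (7% and 10.4% were lower). Against p2, 2 of 29 were higher at day 5 (1.19% of all elements, with 1.12% lower) and 4 of 32 at day 6 (2.4%, with 1.56% lower). The calls against p2 rested on few samples: without the replicate 3 libraries none was left at day 5, and none was left at day 6 without the replicate 2 libraries or with the SAG concentrations of a replicate averaged. With that averaging 0 of all 32893 elements tested were called at day 6. At 100 nM, the SAG concentration pMN and p2 share, 5 were called at day 5 and 0 at day 6. All 72 elements were also tested whatever their mean. Against p0-1, 16 were then higher and 8 lower in pMN at day 5 (11.7% and 6.25% of all elements). At day 6 these were 15 and 3 (10.3% and 3.34%). Against p3 they were 24 and 5 at day 5 (17.3% and 11.7%) and 24 and 4 at day 6 (16.4% and 13.4%). Against p2 they were 5 and 1 on each day (1.68% and 1.38% at day 5, 2.23% and 2.13% at day 6). The element lower than in p2 was Isl1 +134.5 kb. The median log2 fold change of the tested elements at day 6 was 0.26 against p0-1, 0.11 against p2 and 0.49 against p3, and over all elements it was -0.08, 0.02 and 0.00. An element is tested only if its mean over the compared samples is above 100, so one such as Lhx3 +29.0 kb entered only at day 6, through the group where it was high. Of the 72 elements, 38 were tested in at least 1 of these 9 comparisons, 18 in all of them and 34 in none. The 34 were 16 at Isl1, 5 at Lhx4, 5 at Onecut3, 4 at Onecut2, 2 at Onecut1, 1 at Isl2 and 1 at Mnx1.

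**Figure D1:**
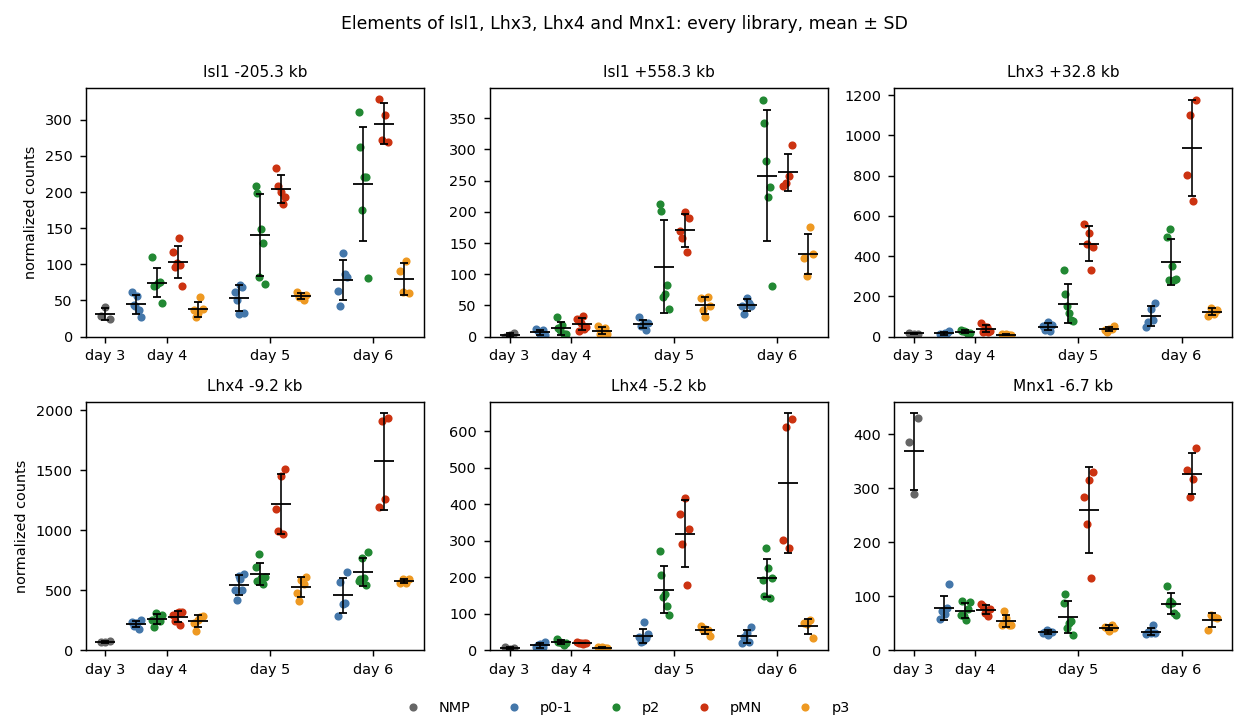
Normalized counts (y axis, from 0) in every library at 6 determinant elements away from the start sites of the authors' annotation, by day (x axis) and cell type (colour); points are libraries, and bars are the group mean ± SD. At Mnx1 -6.7 kb the day 6 pMN samples lie between 284 and 374 and the highest day 6 p2 sample at 119, whereas at Isl1 +558.3 kb the pMN and p2 samples overlap.

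Mnx1 had the element with the largest fold change of pMN over p2 among those tested, on both days. At day 5 the Mnx1 -6.7 kb element had 284, 234 and 316 normalized counts in pMN at 100 nM SAG and 134 and 331 at 500 nM, while p2 had 29.1 at the lowest, a median of 52.4 and 105 at the highest. At day 6 it had 333 and 284 in pMN at 100 nM and 318 and 374 at 500 nM. The p2 samples at day 6 had 65.0, 87.1 and 119 as lowest, median and highest, p0-1 ran from 29.4 to 46.6 and p3 from 37.9 to 66.1. Every pMN sample was above every sample of the other types on both days. The day 6 means were 327 ± 37 in pMN (SD, n = 4), 86.7 ± 19.1 in p2 (n = 6), 34.8 ± 6.87 in p0-1 (n = 5) and 56.4 ± 12.6 in p3 (n = 4). The log2 fold change of pMN over p2 was 2.06 at day 5 (limma adjusted p = 0.000589) and 1.90 at day 6 (adjusted p = 0.000103). Without the replicate 3 libraries the day 5 value was 1.53 (adjusted p = 0.0212), and without the replicate 2 libraries the day 6 value was 1.84 (adjusted p = 0.0212). Over p0-1 and p3 at day 6 it was 3.20 (adjusted p = 7.19e-06) and 2.52 (adjusted p = 8.43e-06). The change from day 4 to day 6 itself differed: it was larger in pMN by 1.88 on the log2 scale than in p2 (adjusted p = 3.06e-05), by 3.26 than in p0-1 and by 2.07 than in p3. The difference from p2 was not called with the SAG concentrations of a replicate averaged (adjusted p = 0.0575) or without the replicate 2 libraries (1.70, adjusted p = 0.0276). The day 6 level in pMN was near that of the NMP samples, 368 ± 71.4 (n = 3), with the lower day 4 level between them. No other Mnx1 element with enough counts to be tested was called between pMN and another type. Tested whatever its mean, Mnx1 -29.6 kb was higher in pMN than in p3 at days 4, 5 and 6 (log2 fold changes 1.56, 1.13 and 1.26). The element at the start site (+0.9 kb) had 757 normalized counts in pMN and 735 in p2 at day 6.

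Lhx3 had the element with the largest fold gain in pMN from day 4 to day 6 among those tested, Lhx3 +32.8 kb. In NMPs it had 18.2, 13.5 and 14.0 normalized counts, and at day 4 pMN had 21.9, 37.5 and 65.4 as lowest, median and highest. At day 5 pMN had 557, 459 and 513 at 100 nM SAG and 330 and 447 at 500 nM, against 75.9, 134 and 333 in p2 as lowest, median and highest. The groups overlapped at day 5 through 1 p2 sample, the first replicate at 10 nM. At day 6 pMN had 801 and 1100 at 100 nM and 672 and 1177 at 500 nM, and p2 had 281, 319 and 536. The groups no longer overlapped, with means of 937 ± 240 in pMN (n = 4) and 372 ± 114 in p2 (n = 6). In p0-1 and p3 the day 6 means were 101 ± 48.7 (n = 5) and 124 ± 17.7 (n = 4). The log2 fold change over p2 was 1.50 at day 5 (limma adjusted p = 0.00309) and 1.33 at day 6 (adjusted p = 0.00235). Without the replicate 2 or the replicate 3 libraries neither was called, with values of 1.57 (adjusted p = 0.0293) and 1.26 (adjusted p = 0.0681) at day 5 and 1.45 (adjusted p = 0.0283) and 1.06 (adjusted p = 0.0118) at day 6. Over p0-1 it was 3.20 at day 6 (adjusted p = 6.21e-05) and over p3 2.91 (adjusted p = 5.58e-06). The change from day 4 to day 6 was larger in pMN than in p0-1 by 1.89 on the log2 scale (adjusted p = 0.00117), and was not called different from that in p2 or p3.

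The other elements downstream of Lhx3 opened in pMN and p2 together to different degrees. At Lhx3 +29.0 kb the day 6 pMN samples had 186, 300, 121 and 312 normalized counts, and p2 had 43.8, 68.3 and 125 as lowest, median and highest. The lowest pMN sample was just under the highest p2 sample, and pMN was called higher (log2 fold change 1.55, limma adjusted p = 0.00937). Without the third 100 nM replicate of day 6 p2 that call was lost. At Lhx3 +25.5 kb pMN had 214, 193, 205 and 223 at day 6, within the p2 range of 83.1 to 212 except for the highest 2. At Lhx3 +10.0 kb the pMN values of 260, 252, 269 and 285 lay within the p2 range of 107 to 295 and above the p3 range of 56.1 to 75.1 (log2 fold change over p3 2.02, adjusted p = 6.6e-06). The Lhx3 +2.3 kb element, in intron 1, was above every other sample in pMN at day 6 at a lower level, 131 ± 13.9 against 80.5 ± 16.7 in p2 (log2 fold change 0.70, adjusted p = 0.0209, under the fold of 2).

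**Figure D2:**
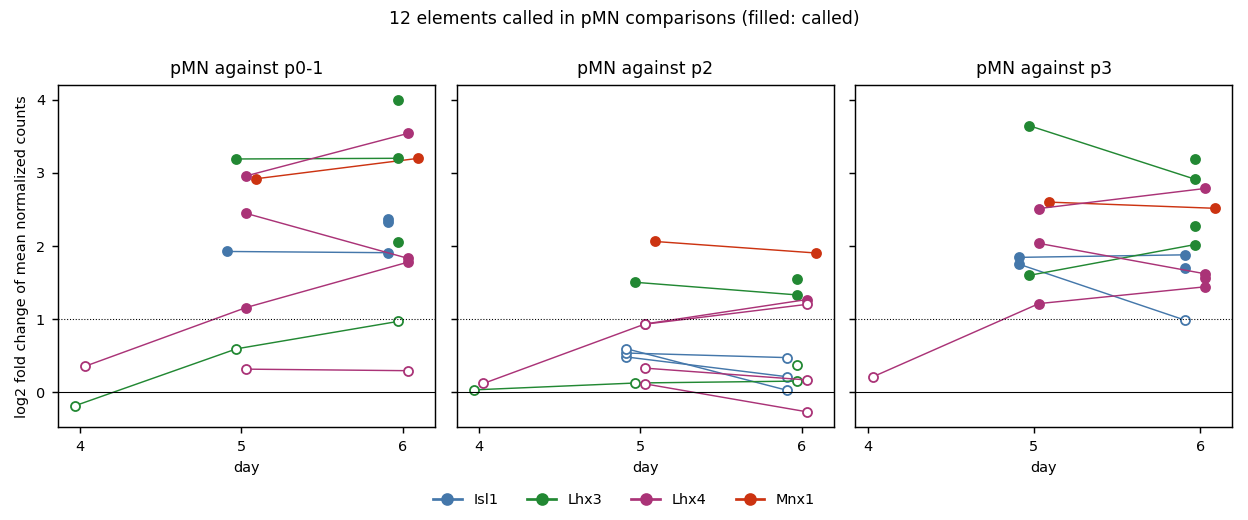
Log2 fold change of mean normalized counts, pMN over p0-1, p2 or p3 (y axis), at days 4, 5 and 6 (x axis) for the 12 determinant elements called higher in pMN, shown only where an element was tested; filled points were called and the dotted line marks a fold of 2. Against p2, Mnx1 -6.7 kb lies at 2.06 at day 5 and 1.90 at day 6, above the other elements on both days.

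Lhx4, a close relative of Lhx3, had a pair of elements upstream of the start site in the authors' annotation that opened most in pMN. At Lhx4 -9.2 kb every type gained accessibility, and pMN gained more. At day 5 pMN had 1174, 996 and 1451 normalized counts at 100 nM SAG and 969 and 1510 at 500 nM, and p2 had 549, 604 and 799 as lowest, median and highest. At day 6 pMN had 1192 and 1908 at 100 nM and 1261 and 1933 at 500 nM, against 548, 600 and 821 in p2, 288 to 652 in p0-1 and 564 to 594 in p3. No pMN sample fell within the range of another type on either day, and at each SAG concentration the third replicate was above the second at day 6. The log2 fold change over p2 was 0.94 at day 5 (limma adjusted p = 0.000484, under the fold of 2) and 1.27 at day 6 (adjusted p = 0.000722). The change from day 4 to day 6 was larger in pMN than in p2 by 1.15 on the log2 scale (adjusted p = 0.00444), than in p0-1 by 1.43 and than in p3 by 1.23. The difference from p2 was not called with the SAG concentrations averaged (adjusted p = 0.249), with voom (adjusted p = 0.0138), or without the replicate 1 (adjusted p = 0.0595) or replicate 3 libraries (0.91, adjusted p = 0.0259). At Lhx4 -5.2 kb the day 6 pMN samples had 303, 610, 281 and 634 normalized counts and p2 had 143, 195 and 280 as lowest, median and highest. The groups were separated by a narrow margin, and the 2.30-fold difference had an adjusted p of 0.0146, so it was not called. With the replicate number as a block it was called (adjusted p = 0.00044). Over p0-1, which ran from 18.8 to 64.9, the log2 fold change was 3.54 (adjusted p = 9.29e-05).

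Of the intronic elements of Lhx4, none with enough counts to be tested was called against p2. Tested whatever its mean, Lhx4 +23.0 kb was higher in pMN than in p2 at day 5 (log2 fold change 1.63, limma adjusted p = 0.00734). At Lhx4 +37.8 kb, in intron 5, day 6 pMN had 249, 300, 253 and 330 normalized counts and p2 126, 371 and 437 as lowest, median and highest, so that the p2 mean of 340 ± 114 was above the pMN mean of 283 ± 39.3. At Lhx4 +12.7 kb, in intron 1, pMN had 177, 184, 171 and 163, above the p3 range of 44.7 to 77.5 (log2 fold change 1.56, limma adjusted p = 0.000164). The start site element of Lhx4 (-0.1 kb) had every day 6 pMN sample above all others, at 1076 ± 68 against 893 ± 58.5 in p2, a log2 fold change of 0.27 (adjusted p = 0.0209).

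At Isl1 the 3 tested elements higher in pMN than in p0-1 at day 6 were open in p2 as well. At Isl1 +558.3 kb day 6 pMN had 241, 247, 258 and 307 normalized counts, and p2 had 81.8, 261 and 380 as lowest, median and highest. The p2 range enclosed the pMN samples, with means of 263 ± 30.1 (n = 4) and 258 ± 105 (n = 6). The element was higher in pMN than in p0-1, which ran from 35.7 to 62.5 (log2 fold change 2.38, limma adjusted p = 1.7e-05). At Isl1 -205.3 kb pMN had 329, 272, 307 and 270 at day 6, p2 had 80.5, 220 and 311, p0-1 41.6 to 116 and p3 60.2 to 105. At Isl1 -245.4 kb pMN had 218, 210, 215 and 215, and p2 had 70.1, 189 and 271. Both were higher in pMN than in p0-1 (log2 fold changes 1.91 and 2.33, adjusted p = 0.000238 and 9.32e-05) and than in p3 (1.88 and 1.69). None of the 3 was called against p2, with log2 fold changes of 0.03, 0.48 and 0.21 (adjusted p = 0.879, 0.262 and 0.623). In all 3 the lowest p2 sample was the third 100 nM replicate. The start site element of Isl1 varied little, 1069 normalized counts in pMN against 994 in p2 at day 6. Most of the remaining Isl1 elements had low counts, and several were highest in other types. Isl1 +15.2 and +5.6 kb had means of 177 and 137 over all libraries and were highest in NMPs, at 324 and 474. Isl1 +398.2 kb, chosen after its values were seen, had 126 normalized counts in p0-1 and 37.7 in pMN at day 6.

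Isl2 and the 3 Onecut genes had no element higher in pMN by the threshold among those with enough counts to be tested. Tested whatever its mean, Onecut2 +68.3 kb was higher than in p3 at days 4, 5 and 6 (log2 fold changes 1.70, 1.97 and 3.16). Onecut2 +36.2 kb was higher than in p3 at days 5 and 6 (1.15 and 1.47) and lower than in p0-1 at day 5 (-1.31). Onecut3 +19.3 kb was lower than in p3 at days 5 and 6 (-2.20 and -2.44) and than in p0-1 at day 5 (-1.28). Onecut3 -30.3 kb was lower than in p0-1 at day 6 (-1.06). At Isl2, pMN had the highest mean at none of its 4 elements at day 6. At Onecut1 the start site element (+0.2 kb) had 1894 and 1985 normalized counts in pMN at 100 nM SAG and 1937 and 1871 at 500 nM at day 6. The p2 samples had 1352, 1843 and 2038 as lowest, median and highest, p0-1 ran from 1459 to 1749 and p3 from 950 to 1214. The pMN samples lay within the p2 range and above the other types, with log2 fold changes of 0.28 over p0-1 (limma adjusted p = 0.00926) and 0.81 over p3 (adjusted p = 2.67e-05), both under the fold of 2. Onecut1 -4.8 kb rose from day 4 in pMN, p2 and p3, to day 6 means of 176, 171 and 185. In p0-1 it went from 67.6 to 138 and was not tested, being below the filter on the mean. Tested whatever its mean, it rose in p0-1 as well (log2 fold change 1.02, limma adjusted p = 0.00173). At Onecut3 the start site element (+1.6 kb) was lower in pMN than in p0-1 at day 6, 314 against 451 (log2 fold change -0.52, adjusted p = 0.00944, groups not overlapping, under the fold of 2), and 436 in p2 (-0.47, adjusted p = 0.0285). At Onecut2 -7.2 kb pMN had 359 ± 7.99 and p2 509 ± 87.4 (log2 fold change -0.51, adjusted p = 0.0289).

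At all 8 genes the element nearest the start site in the authors' annotation held reads in every neural progenitor condition. The lowest condition mean was 162 normalized counts, at Lhx3. Over the 24 neural progenitor conditions the mean per kb of element was highest at Isl1 (641 normalized counts per kb) and Isl2 (631), then Onecut1 (381), Onecut2 (324), Lhx4 (299), Mnx1 (194), Lhx3 (170) and Onecut3 (104). The ratio of the highest to the lowest condition was 1.33 at Mnx1, 1.35 at Isl1 and at Isl2, 1.37 at Onecut2, 1.52 at Lhx4, 1.75 at Lhx3, 1.88 at Onecut3 and 1.96 at Onecut1. Against the neural progenitor mean, the NMP level was 1.99 times as high at Onecut3, 1.97 at Mnx1, 1.79 at Lhx3 and 1.66 at Lhx4, and 0.667 times at Onecut1. Of the 13 determinant elements within 5 kb of a start site, 0 had a range over the 24 conditions above 2 on the transformed log2 scale, and of the 59 farther away 29 (49.2%) did. Over all elements the same shares were 12.5% and 45.3%.

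The promoters whose accessibility followed a start site most closely over the 25 condition means are given as a description, over points that share libraries and depth. For Isl1 they were the promoters of Uxs1, Ankrd16 and Napa (Pearson r = 0.902, 0.901 and 0.897), for Mnx1 Ydjc and Sp5 led (0.958 and 0.946), and for Lhx3 Tmem119 (0.866). Among the 12 elements higher in pMN, pairwise r over the 24 neural progenitor conditions ran from 0.503 to 0.972 with a median of 0.834. These 12 were chosen from the same libraries for being higher in pMN, so their likeness follows in part from that choice.

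**Figure D3:**
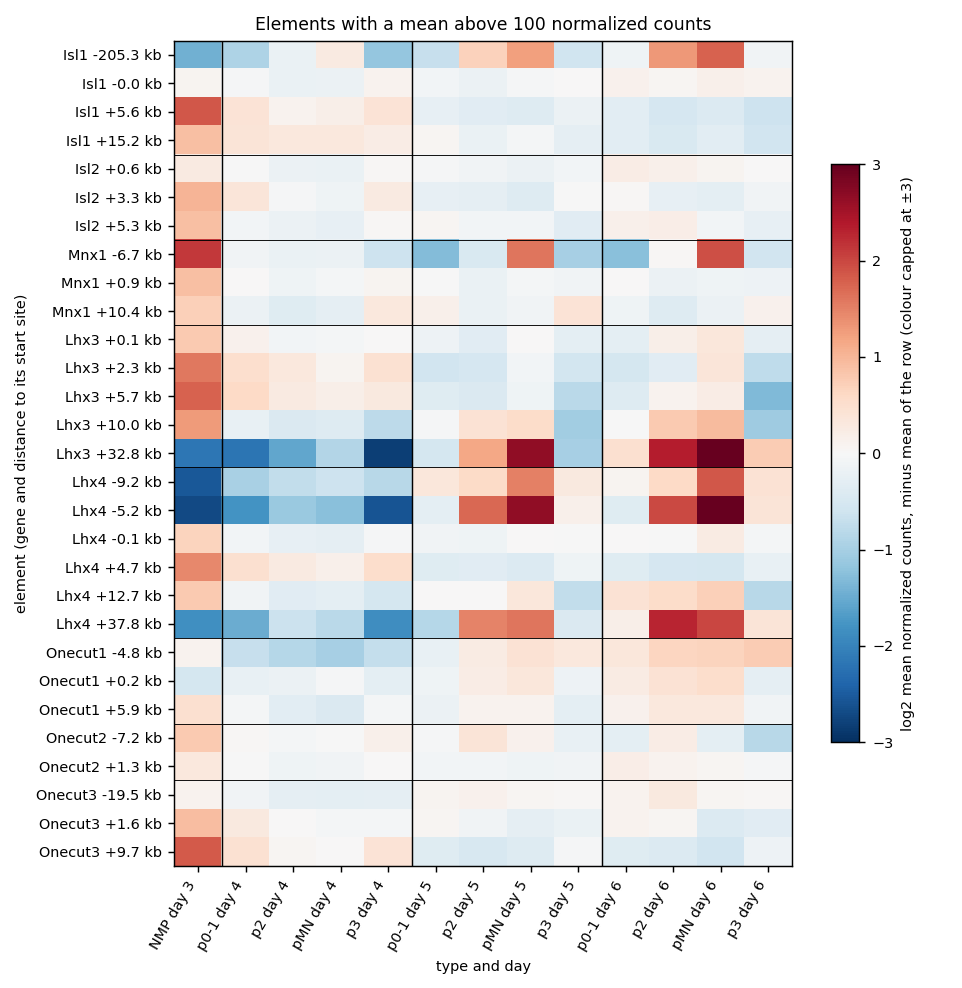
Accessibility of the 29 determinant elements with a mean above 100 normalized counts, as log2 mean normalized counts minus the mean of the row (colour, capped at ±3), by type and day (columns). The Mnx1 -6.7 kb row is highest in NMPs and in day 5 and day 6 pMN, and the Lhx3 +32.8 kb and Lhx4 -5.2 kb rows in day 6 pMN. The rows at the start sites of the authors' annotation vary least.

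For timing, pMN at day 5 was set against p2 and p0-1 a day later. Such a comparison is of levels, and it cannot tell earlier opening from a level that stays higher in pMN. Of 30 elements tested, 1 was higher in day 5 pMN than in day 6 p2 (2.74% of all elements were) and none was lower (4% of all elements). It was Mnx1 -6.7 kb, at 260 ± 79.7 (n = 5) against 86.7 ± 19.1 (n = 6), with a log2 fold change of 1.57 (limma adjusted p = 0.000385) and no overlap. Lhx4 -9.2 kb was also without overlap, at 1220 ± 251 against 652 ± 113 (log2 fold change 0.90, adjusted p = 0.000528, under the fold of 2). Lhx3 +32.8 kb had a log2 fold change of 0.31 (adjusted p = 0.184), Lhx4 -5.2 kb of 0.68 (adjusted p = 0.0351), Isl1 +558.3 kb of -0.60 (adjusted p = 0.244) and Isl1 -205.3 kb of -0.05 (adjusted p = 0.905). Against day 6 p0-1, 8 of 29 elements were higher in day 5 pMN (7.42% of all elements) and none was lower (4.77%). With all 72 elements tested whatever their mean, 3 were higher and 4 lower than in day 6 p2 (3.93% and 4.59% of all elements). Against day 6 p0-1 these were 17 and 5 (11.3% and 4.65%).

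**Figure D4:**
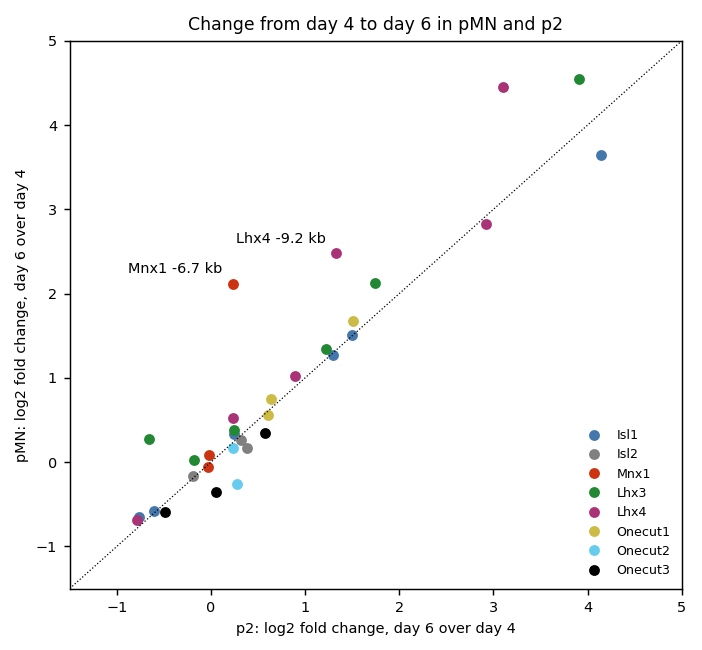
Log2 fold change from day 4 to day 6 in pMN (y axis) against that in p2 (x axis) for 32 determinant elements; each point is an element, coloured by gene, and the dotted line marks equal change. The labelled points, Mnx1 -6.7 kb and Lhx4 -9.2 kb, are the 2 elements whose change was called larger in pMN, and the changes range from -0.79 to 4.55.

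The change from day 4 to day 6 was compared between types by the interaction of type and day. It was larger in pMN than in p2 at 2 of 32 elements (0.398% of all elements), than in p0-1 at 5 of 28 (2.83%) and than in p3 at 6 of 27 (6.09%). The 2 against p2 were Mnx1 -6.7 kb and Lhx4 -9.2 kb. The 5 against p0-1 were these with Lhx4 -5.2 kb, Lhx3 +10.0 kb and Lhx3 +32.8 kb, and the 6 against p3 were Mnx1 -6.7 kb, Lhx4 -9.2 and -5.2 kb and Lhx3 +2.3, +5.7 and +10.0 kb. No Isl1, Isl2 or Onecut element was among them under the filter on the mean. With all 72 elements tested whatever their mean, 3 changed more in pMN than in p2 and 0 less (0.652% and 0.694% of all elements). Against p0-1 these were 12 and 2 (4.1% and 1.78%), and against p3 10 and 2 (6.46% and 8.01%). Isl1 +221.9 kb then changed more than in p2 (2.24, limma adjusted p = 0.00161) and p0-1 (3.37). Isl1 +398.2 kb changed more than in p3 (1.88) and less than in p0-1 (-1.79). With the SAG concentrations of a replicate averaged, 0, 1 and 2 were called against p2, p0-1 and p3, and against p2 so was none of the 31692 elements tested. With voom 1, 3 and 5 were called, and leaving out any 1 replicate number left 1 against p2.

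Counting samples rather than testing, every pMN sample was above every sample of the other types at 0 of the 72 elements at day 4, 2 at day 5 and 6 at day 6, where 0.675%, 2.17% and 4.07% of all elements showed this. The 2 at day 5 were Mnx1 -6.7 kb and Lhx4 -9.2 kb. At day 6 Lhx4 -5.2 and -0.1 kb, Lhx3 +32.8 kb and Lhx3 +2.3 kb joined them. The pMN mean was the highest of the 4 types at 16, 30 and 23 of the 72 elements at days 4, 5 and 6, where 23.3%, 20.9% and 21.1% of all elements had it highest in pMN.

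Within pMN no difference between SAG concentrations was detectable at these loci. Between 500 and 100 nM, limma called 0 of 32 determinant elements and 0 of 31990 elements tested (0%), voom called 0, and 0 determinant elements and 943 elements in all had an unadjusted p under 0.05. Log2 fold changes of the determinant elements ran from -0.27 at Lhx3 +32.8 kb to 0.11 at Onecut1 -4.8 kb.

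Genes around the determinants, taken as lists, were described by the same counts. Of the elements at progenitor genes of the motor neuron domain, 8 of 62 tested were higher in pMN than in p2 at day 6, 4 at Olig1 and 4 at Olig2, and 0 were lower, where 2.4% of all elements were higher and 1.56% lower. Of the elements at genes that act beside the determinants in neuronal differentiation, 3 of 57 were higher, at Ebf1, Neurod4 and Nhlh2, and 1 lower, at Insm1. Of the elements at determinants of other interneurons 0 of 30 were higher and 1 was lower, at Sim1, a V3 determinant. The median log2 fold change over p2 at day 6 was 0.22 for the progenitor list and 0.03 for the differentiation list, where it was 0.02 over all elements. At day 4 against p2, 0 of 39 elements of the differentiation list were higher.

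Cell type markers were read beside these results. Summed over its 16 elements, Olig2 was higher in every pMN sample than in every other sample on each day, from 9778 to 11988 normalized counts at day 6 against at most 7199. Summed accessibility over 96 elements of 12 neuron marker genes was highest in pMN at day 6. It was 21424 to 22388 in pMN, 15222 to 20939 in p2, 14019 to 17538 in p0-1 and 14636 to 17713 in p3. By gene the day 6 means went both ways, with Elavl4 at 4707 in pMN and 3129 in p2 and Tubb3 at 1825 and 2218. The p2 mean was the higher of the 2 at Tubb3, Stmn2, Dcx, Nefl and Ina, and the pMN mean at the other marker genes. At day 4 it was 11317 to 12558 in pMN and 10843 to 12605 in p2. All cells were gated as SOX2+, and the part of neuron chromatin in the determinant values was not tested. Reads in elements per library ran from 9298160 to 29985325, with a median of 20254011.

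A few libraries stood apart at these elements. The third 100 nM replicate of day 6 p2 was the lowest of the 6 p2 samples at 41 of the 72 elements. Its summed p3 markers were 7989 against 3809 to 5333 in the other 5, its p2 markers 32297 against 38038 to 43158 and its neuron markers 15222 against 19485 to 20939. The p3 markers with elements were Nkx2-9 and Foxa2, as Nkx2-2 had 0. Neither list is particular to its type: day 6 pMN ran from 5551 to 8430 on the p3 markers and from 36677 to 40915 on the p2 markers. Without it, 3 elements were higher in pMN than in p2 at day 6 instead of 4. The second 500 nM replicate of day 5 pMN was the lowest of the 5 at 30 of the 72 elements, and without it 4 elements were higher in pMN than in p2 at day 5 instead of 2, with Lhx4 -5.2 and -9.2 kb added. The third 10 nM replicate of day 4 p0-1 was the highest of its group at all 8 start site elements, with 40.2% of its reads in promoter elements against 31.0% to 39.1% in all other libraries.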

How the data were processed

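The series holds 67 CaTS-ATAC libraries. The authors aligned reads to mm10, called peaks with MACS, counted reads in the peaks and deposited DESeq2 variance-stabilized values, which are on a log2 scale, for 111638 elements, with a separate HOMER annotation of 133549 elements. Elements were joined to their nearest gene by the peak identifier. Element coordinates are mm10, which matched the lengths of the GRCm38 chromosomes used for sequence. The transform was inverted to normalized counts. Divided by the value of 1 read in each library, 100% of the values below 1000 reads lay within 0.01 of a whole number, and the size factors ran from 0.495 to 1.50.

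Types were compared with limma 3.58.1 (R 4.3.3) on the deposited log2 values with a variance trend, with only the compared groups in the fit, pooled over SAG, two-sided, and Benjamini-Hochberg adjustment over all elements with a mean above 100 normalized counts. Calls needed a fold change above 2 in mean normalized counts, with a pseudocount of 1, together with an adjusted p under 0.01; interactions needed a difference of log2 fold changes above 1. Fold changes are on the log2(mean normalized counts + 1) scale, which understates changes at low counts. Both SAG concentrations of a differentiation entered as separate samples, so p-values partly measure the spread within a differentiation. The scripts were tested on simulated data. The elements named are those called in a pMN comparison, the start site element of each gene and, for genes with no call, the element with the largest pMN excess at day 6. The members and lists were chosen with earlier results of these data known, and 1 further gene list is not reported here.

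The replicate numbers of the titles were checked for pairing: the deviations from group means correlated between same-numbered samples with a median r of 0.618 at day 4 (69 of 77 pairs over 0.1), 0.569 at day 5 (71 of 71) and 0.565 at day 6 (59 of 59), so the numbers pair the samples at days 5 and 6. Counts have no molecular identifiers, so depth gives counting error only. Python 3.11.15, numpy 2.4.6, pandas 2.3.3 and matplotlib 3.10.9 were used.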

Additional observations from a re-analysis of the deposited data

Results flagged for a closer look

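At 25 named elements and 12 combinations of type and day, 300 groups of samples were searched for a sample far from the rest, and 15 were found, where chance would give about 15, since it flags about 1 group in 20.

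In the second 500 nM replicate of day 5 pMN, normalized counts were lowest at Isl1 -245.4 kb (135, others 164 to 172), Lhx3 +25.5 kb (88.2, others 130 to 145), Lhx3 +29.0 kb (45.6, others 96.5 to 122) and Lhx4 +37.8 kb (167, others 220 to 235). In the third 100 nM replicate of day 6 p2 they were lowest at Isl1 +558.3 kb (81.8, others 224 to 380), Lhx3 +10.0 kb (107, others 212 to 295) and Lhx4 +37.8 kb (126, others 325 to 437).

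The other 8 were single p3 libraries. At day 4, Lhx4 -0.1 kb had 667 in the first 500 nM replicate (others 894 to 966). At day 5, Isl1 -245.4 kb had 16.7 in the third 100 nM replicate (others 33.1 to 39.9) and Isl2 +0.6 kb 1212 in the second 500 nM replicate (others 1076 to 1093). The third 500 nM replicate of day 5 had 27.4 at Lhx3 +25.5 kb (others 36.8 to 38.7) and 21.6 at Lhx3 +29.0 kb (others 8.76 to 11.5). At day 6, Lhx3 +5.7 kb had 49.8 in the third 100 nM replicate (others 41.8 to 42.9), Lhx4 -5.2 kb 34.0 in the third 500 nM replicate (others 71.2 to 82.0) and Onecut2 +63.6 kb 3.30 in the second 100 nM replicate (others 0.971 to 1.15).

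The change from day 4 to day 6 differed between types by its interaction term in limma at 13 element comparisons, each larger in pMN. These are elements that passed the filter on the mean. Against p2 the difference of log2 fold changes was 1.88 at Mnx1 -6.7 kb (adjusted p = 3.06e-05) and 1.15 at Lhx4 -9.2 kb (adjusted p = 0.00444). Against p0-1 it was 3.26 at Mnx1 -6.7 kb, 3.01 at Lhx4 -5.2 kb, 1.89 at Lhx3 +32.8 kb, 1.43 at Lhx4 -9.2 kb and 1.15 at Lhx3 +10.0 kb, with adjusted p from 2.54e-07 to 0.00266. Against p3 it was 2.07 at Mnx1 -6.7 kb, 1.65 at Lhx3 +5.7 kb, 1.63 at Lhx3 +10.0 kb, 1.50 at Lhx3 +2.3 kb, 1.45 at Lhx4 -5.2 kb and 1.23 at Lhx4 -9.2 kb, with adjusted p from 5.87e-06 to 0.000952. At Lhx3 +2.3 and +5.7 kb the difference from p3 lay in a fall in p3: between days 4 and 6 the p3 means went from 141 to 59.9 and from 138 to 44.3, and the pMN means from 108 to 131 and from 128 to 131.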

How the results depend on the processing

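Element values were followed under the alternatives for the comparisons of pMN with another type on the same day. Of these, 59 lost their call, 10 gained one and 1927 stayed on their side of the threshold. Every value that lost or gained a call was still higher in pMN. The direction of the other values was not tallied. Changes over time, interactions and the comparison across days are outside this tally, and their counts are given below. The calls against p2 were the least stable. Numbers below are determinant elements called, in both directions together.

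With the replicate number as a block, 5 elements were called between pMN and p2 at day 6 instead of 4, 3 instead of 2 changed more in pMN than in p2 and 6 instead of 5 more than in p0-1, and the block changed no other count. With the numbers of the descriptions, which differ from those of the titles in some samples, 1 instead of 2 was called in p0-1 from day 4 to day 6.

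Without the filter on the mean, the counts were 3, 24 and 18 against p0-1 at days 4, 5 and 6, 6 against p2 at day 5, 15, 29 and 28 against p3, 42 from NMPs to day 4 pMN, 31, 28, 18 and 25 from day 4 to day 6 in pMN, p2, p0-1 and p3, 14 and 12 for the interactions with p0-1 and p3, and 7 and 22 for day 5 pMN against day 6 p2 and p0-1. This alternative tests elements with few counts. Higher and lower elements were then 19 and 23 from NMPs to pMN, 20 and 11, 21 and 7, 12 and 6, and 15 and 10 from day 4 to day 6 in pMN, p2, p0-1 and p3, 12 and 2 and 10 and 2 for the interactions with p0-1 and p3, and 3 and 4 and 17 and 5 for day 5 pMN against day 6 p2 and p0-1. Over the 9 comparisons of pMN with another type on the same day, 30 elements were higher and 12 lower in pMN at least once.

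With a log2 fold change above 2, the counts were 1 and 0 against p2 at days 5 and 6, 4 and 6 against p3, 1 from NMPs to pMN, 7, 4, 0 and 0 from day 4 to day 6 in pMN, p2, p0-1 and p3, 0, 2 and 1 for the interactions with p2, p0-1 and p3, and 0 and 3 for day 5 pMN against day 6 p2 and p0-1. With only 100 nM SAG they were 5 and 0 against p2 at days 5 and 6, and with only 500 nM 4 and 5 against p3, both with fewer samples. With the SAG concentrations of a replicate averaged they were 0 against p2 at day 6, 1 in p0-1 from day 4 to day 6, and 0, 1 and 2 for the interactions with p2, p0-1 and p3. At Mnx1 -6.7 kb this left a log2 fold change of 1.90 over p2 at day 6 with an adjusted p of 0.0164. Centered on sample medians, 10 were called from NMPs to pMN and 4, all lower, in p0-1 from day 4 to day 6. With voom, 1 was called in p0-1 from day 4 to day 6, and 1 and 3 for the interactions with p2 and p0-1.

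Leaving out 1 replicate number at a time gave 0 to 2 against p2 at day 5 (0 without replicate 3), 0 to 3 against p2 at day 6 (0 without replicate 2), 0 to 1 against p3 at day 4, 1 to 5 in p0-1 from day 4 to day 6 (5 without replicate 1), and 1 to 1, 2 to 5 and 3 to 7 for the interactions with p2, p0-1 and p3, while the other counts stayed within 1.5 times. Leaving out single libraries was chosen after seeing the data. Without the second 500 nM replicate of day 5 pMN 4 were called against p2 at day 5, and without the other 2 libraries described no count moved by over 1.5 times. The causes of these differences were not tested. Depth limits the 34 elements never tested, whose highest mean in any type and day was 282 and whose median highest mean was 75.5.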

Other observations

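Several Isl1 elements with low counts were highest outside pMN or fell in pMN, and they were chosen after their values were seen. Isl1 +134.5 and +221.9 kb were below the filter on the mean in each comparison of pMN with another type. At day 6 Isl1 +134.5 kb had a mean of 66.3 normalized counts in p0-1, 43.6 in p2, 13.3 in pMN and 1.2 in p3. Isl1 +221.9 kb had 81.7 in pMN and 86.7 in p3, against 22.5 in p2 and 7.4 in p0-1. Isl1 -186.2 kb went the other way in time, from 129 in day 4 pMN to 47.8 in day 6 pMN. It was tested at day 4, with log2 fold changes of pMN over p0-1 of 0.69 (limma adjusted p = 0.0247) and over p2 of 0.16 (adjusted p = 0.871), neither called.

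The list of differentiation partners was also compared with the other types. At day 6, 14 of 54 elements of the differentiation list were higher in pMN than in p0-1 and 1 was lower, and 18 of 57 were higher than in p3 and 1 was lower (9.28% and 15.5% of all elements were higher). Of the elements of the neuron markers, 21 of 35 rose in pMN from day 4 to day 6 and 0 fell, where 17.7% of all elements rose and 7.29% fell. Elements of these markers also rose in the other types, 17 of 33 in p2, 10 of 27 in p0-1 and 12 of 28 in p3, where 1 fell. Of all elements 17.4%, 14.6% and 16.6% rose in these types, and 7.34% fell in p3.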
